A study of Mus musculus with 21 samples.

Results

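The 10 genes P2ry12, P2ry13, Tmem119, Cx3cr1, Sall1, Siglech, Csf1r, Gpr34, Fcrls and Olfml3 are the usual markers of resting, or homeostatic, microglia. They were chosen by symbol as known markers, with earlier results of these data known, and make up 10 of the 48474 rows of the count table. All 10 were abundant enough to be tested, among 18248 rows tested in total. Microglia are the resident macrophages of the brain. They depend on signaling through CSF1R, take on their adult identity under the influence of TGF-β and SALL1, and scan the tissue with processes that respond to nucleotides through P2RY12. In many models of neurodegeneration, microglia that become reactive lower P2RY12, TMEM119 and related genes and raise genes of the disease-associated state.

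Bulk RNAseq of the neocortex was done in 10 bigenic rNLS8 mice (TG) and 11 monogenic littermates (WT). The methods of the study name brain cortex, whereas a figure legend gives hippocampus for its rNLS8 cohorts. In rNLS8 mice, a tTA driver under the neurofilament heavy chain promoter expresses human TDP-43 without a functional nuclear localization signal (TDP-43ΔNLS), mainly in neurons, as long as doxycycline is absent. All mice of both genotypes were 17 to 19 weeks old when 350 µg of an antisense oligonucleotide (ASO) without a target was injected into a cerebral ventricle in 10 µL, and no mouse without this injection was analyzed here. Doxycycline at 200 mg/kg of diet was withdrawn 2 weeks after the injection and tissue was taken after 3 weeks of induction. The labels give a batch for each mouse, which the submitters describe as independent cohorts, with 4 WT and 3 TG mice in batch A and 7 WT and 7 TG mice in batch B.

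The total count of a mouse was 20700912 at the lowest and 22263809 at the highest. Normalized counts of mouse Tardbp, on which reads of the human transgene may also be counted, were between 2253 and 2827 in WT mice, between 4405 and 5053 in the TG mice of batch B, and between 2363 and 3091 in the TG mice of batch A. The TG mouse T61340 had the lowest of these TG values, within the WT range, and TG mouse T60303 was the highest of all 21 mice for several microglial genes. Results are therefore also given without these 2 mice of batch A. In bulk tissue, fewer cells of a type and less RNA per cell cannot be told apart. Most defining markers of blood-derived cells were near 0, with 49 counts of Ccr2 over all 11 WT and 88 over all 10 TG mice, and 10 and 6 counts of Cd3e. Plac8 had 16 counts over all WT and 148 over all TG mice, with at most 34 in a mouse, and was too low to be tested. The summed normalized counts of 8 monocyte and neutrophil genes were between 15.3 and 45.9 in WT and between 20.6 and 80.3 in TG mice, and 0 of them were called with edgeR or DESeq2 (0 at an unadjusted p under 0.05 with edgeR, where 1 of the 8 was tested). Among 8 lymphocyte genes only Cd4, which macrophages can also express, was abundant enough to be tested and was lower (log2 fold change -1.24, SE 0.33, adjusted p = 0.00345).

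The genes lie on several chromosomes. P2ry12 (chr3:59216271-59262985, minus strand of GRCm38) and P2ry13 (chr3:59207892-59210882, minus strand) are neighbors, and both lie within Med12l on the opposite strand. Exons of Med12l share 9 bases with those of P2ry12 and 0 with those of P2ry13. Promoters, taken as 250 bases before to 50 bases after the annotated start in RefSeq for GRCm38.p6, were found for 7 of the 10 genes, not for Tmem119, Gpr34 and Csf1r. They were searched on both strands for GAGGAA, the core of sites bound by the myeloid factor PU.1, and for the longer GAGGAAGT. GAGGAA was present in 3 of these 7 genes, P2ry13, Fcrls and Siglech, and GAGGAAGT in 0, compared with 31.3% and 3.7% of all 27025 genes with a promoter in the table. The promoters of P2ry12, P2ry13 and Olfml3 are printed 5′ to 3′ on the strand of the gene, because P2ry12 was the gene that fell, P2ry13 is its neighbor and Olfml3 had the largest rise. Capitals mark GAGGAA, which starts at -48 from the start of P2ry13.
P2ry12 (chr3:59262936-59263235, minus strand): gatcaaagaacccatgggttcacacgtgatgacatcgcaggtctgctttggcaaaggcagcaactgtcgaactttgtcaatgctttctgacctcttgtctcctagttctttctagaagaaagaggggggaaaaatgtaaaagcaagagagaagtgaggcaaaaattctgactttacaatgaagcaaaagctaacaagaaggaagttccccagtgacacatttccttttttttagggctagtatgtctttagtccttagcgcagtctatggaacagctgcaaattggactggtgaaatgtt
P2ry13 (chr3:59210833-59211132, minus strand): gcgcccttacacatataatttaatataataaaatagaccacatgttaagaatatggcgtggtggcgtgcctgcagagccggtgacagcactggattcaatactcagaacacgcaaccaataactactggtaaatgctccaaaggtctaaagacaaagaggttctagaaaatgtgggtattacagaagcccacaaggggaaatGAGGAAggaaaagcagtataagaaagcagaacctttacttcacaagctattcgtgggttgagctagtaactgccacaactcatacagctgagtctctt
Olfml3 (chr3:103737952-103738251, minus strand): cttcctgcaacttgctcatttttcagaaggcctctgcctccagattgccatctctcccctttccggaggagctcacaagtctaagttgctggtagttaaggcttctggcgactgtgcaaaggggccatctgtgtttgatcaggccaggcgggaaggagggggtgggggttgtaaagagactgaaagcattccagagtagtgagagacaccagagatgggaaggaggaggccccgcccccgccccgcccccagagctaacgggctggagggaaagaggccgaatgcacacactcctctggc

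Genotype was compared with edgeR's quasi-likelihood test with batch as covariate and Benjamini-Hochberg adjustment over all 18248 genes. At an adjusted p-value under 0.05, P2ry12 was lower in TG mice, Olfml3, Tmem119 and Csf1r were higher, and the other 6 genes were not past the threshold. Thus, 4 of 10 genes were called, 3 higher and 1 lower, where 44.7% of all genes were called, 23% higher and 21.7% lower. The share of called genes was therefore not above that of all genes. The median log2 fold change was 0.07 over the 10 genes and -0.00067 over all genes, and all 10 values were between -0.35 and 0.24. In none of the 10 genes did every TG mouse lie above or below every WT mouse, which was the case for 3.85% (above) and 3.8% (below) of all genes. P2ry12 came closest, with 9 of 10 TG mice below every WT mouse.

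**Figure D1:**
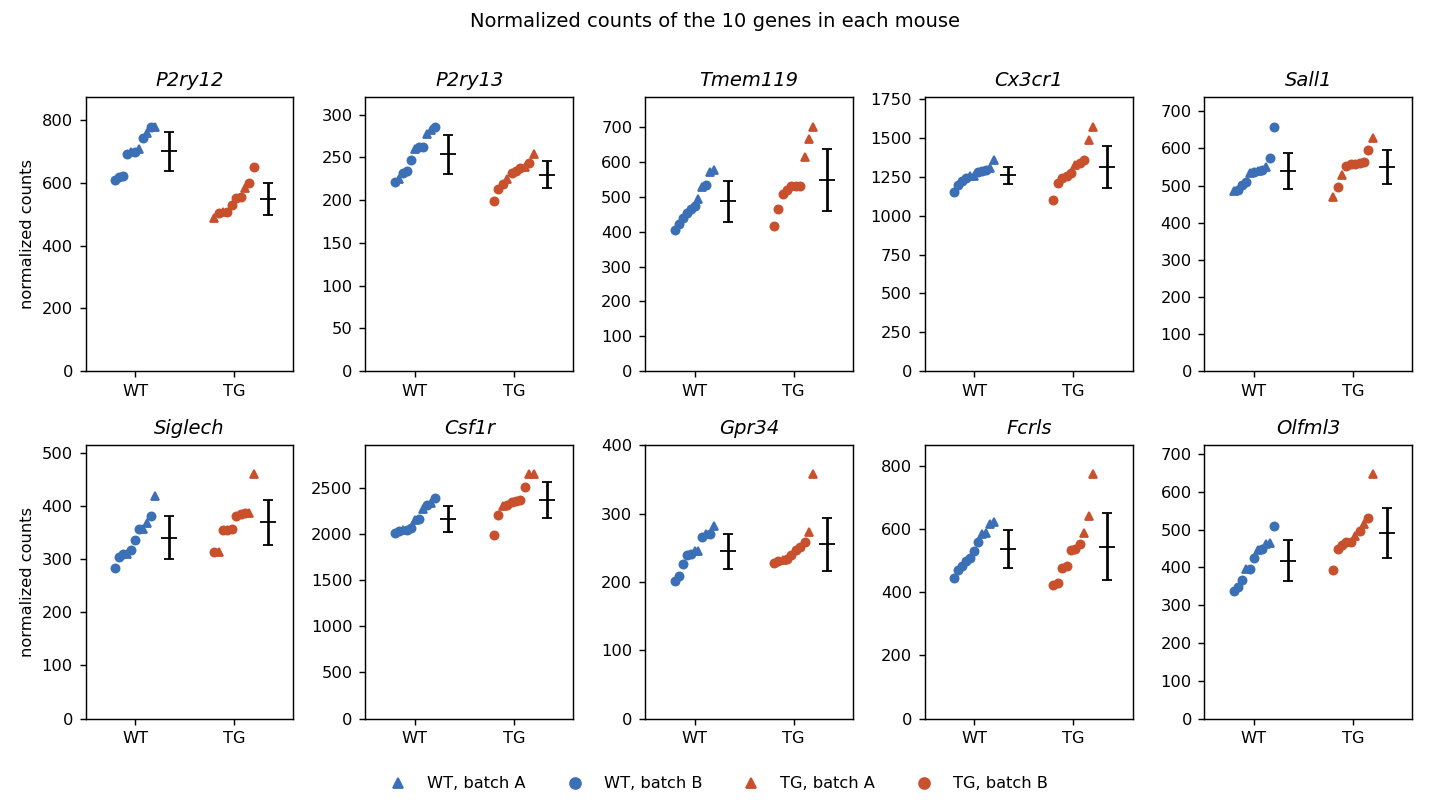
Normalized counts (y axis, from 0) of each gene in each mouse, by genotype (WT, 11 mice, and TG, 10 mice), with triangles for batch A and circles for batch B; black bars show the mean ± SD. In the P2ry12 panel 9 of 10 TG mice lie below the lowest WT mouse at 608, while in the other panels the genotypes overlap more.

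P2RY12 and P2RY13 are receptors for ADP of the same family, and P2RY12 directs microglial processes to sites of ATP release. P2ry12 was between 608 and 780 normalized counts in WT mice, with a median of 699.9, and between 489 and 649 in TG mice, with a median of 541. The highest TG mouse, T_69531, was the sole one above the lowest WT mouse, T_70262. The means were 700.3 ± 62.4 (SD, n = 11) and 548 ± 50.9 (SD, n = 10), a log2 fold change of -0.35 (standard error, SE, of 0.058, adjusted p = 2.62e-05), or 0.784-fold. P2ry12 was lower in batch A alone (log2 fold change -0.46, adjusted p = 0.0219) and in batch B alone (-0.30, adjusted p = 0.00232), and it passed the threshold in all 21 fits that left out 1 mouse, with log2 fold changes between -0.38 and -0.33. Without T61340 and T60303 the log2 fold change was -0.33 (adjusted p = 0.000172).

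P2ry13 was between 221 and 286 normalized counts in WT mice (median 259.7) and between 199 and 254 in TG mice (median 232). All 10 TG mice were below the WT median, but only 3 of them were below every WT mouse. The means of 253 ± 23.3 (SD) and 229.6 ± 15.9 (SD) gave a log2 fold change of -0.14 (SE 0.057, 95% interval -0.25 to -0.03). This narrowly missed the threshold with edgeR (adjusted p = 0.0514) and narrowly passed it with DESeq2 (adjusted p = 0.0467), by which 45.1% of all genes were called. It was further from the threshold with library size only (-0.06, adjusted p = 0.389) and when all genes with at least 1 count were tested (adjusted p = 0.173). It narrowly passed when only genes with at least 10 counts in every mouse were tested (adjusted p = 0.0498). The genotype effect was -0.10 in batch A and -0.15 in batch B, and neither batch alone passed the threshold (adjusted p = 0.669 and 0.0909). Med12l, the gene around both receptors, had a log2 fold change of -0.21 (SE 0.088, adjusted p = 0.0490), and the 9 exon bases it shares with P2ry12 are 0.4% of the P2ry12 exons.

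Csf1r encodes the receptor for the growth factors CSF1 and IL-34, on which microglia depend for survival. It had between 2013 and 2393 normalized counts in WT mice (median 2152) and between 1992 and 2652 in TG mice (median 2354). Although 9 of 10 TG mice were above the WT median, the lowest of all 21 mice was also a TG mouse, T_70267. Csf1r rose from 2166 ± 139 (SD) to 2370 ± 198 (SD), a log2 fold change of 0.13 (SE 0.046, adjusted p = 0.0201). The change was not past the threshold in batch A (0.23, adjusted p = 0.174) or batch B (0.09, adjusted p = 0.178) alone, or without T61340 and T60303 (0.09, adjusted p = 0.114). Csf1r lies on chromosome 18 and shares 873 exon bases, 15.1% of its exons, with Hmgxb3 on the opposite strand. Hmgxb3 was also higher in TG mice (log2 fold change 0.16, SE 0.051, adjusted p = 0.0112), and reads of these genes in the shared exons could not be told apart, as no strand setting is stated.

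The other receptors were not past the threshold. CX3CR1 binds the neuronal chemokine fractalkine, encoded by Cx3cl1. Cx3cr1 was between 1154 and 1357 normalized counts in WT (median 1254) and between 1103 and 1573 in TG mice (median 1299.8), so that TG mice exceeded the WT range at both ends, with 3 mice above and 1 below. Its log2 fold change was 0.07 (SE 0.043, 95% interval -0.01 to 0.15, adjusted p = 0.196), with 0.20 in batch A, 0.0085 in batch B, 0.045 without T60303 and 0.02 without both T61340 and T60303. Gpr34, a receptor for lysophosphatidylserine, had a median of 245 in WT (202 to 281) and of 243 in TG mice (227 to 358), with a log2 fold change of 0.07 (SE 0.069, 95% interval -0.07 to 0.20, adjusted p = 0.451). The highest value was that of T60303, and the next TG mouse, at 273, was within the WT range. Without T60303 the log2 fold change was 0.0094. Gpr34 lies inside Cask on the X chromosome (chrX:13622650-13640859) but shares 0 exon bases with it.

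TMEM119 is a membrane protein used to tell microglia from other macrophages. Tmem119 was between 404 and 578 normalized counts in WT mice (median 475) and between 416 and 702 in TG mice (median 532). The 3 TG mice above every WT mouse were the 3 TG mice of batch A. Tmem119 rose from 488 ± 58.9 (SD) to 549 ± 87.7 (SD), a log2 fold change of 0.18 (SE 0.056, adjusted p = 0.00921). The effect was 0.31 in batch A (adjusted p = 0.0954) and 0.13 in batch B (adjusted p = 0.154), not past the threshold in either alone. Tmem119 also differed between batches, with means in WT mice of 543 ± 40.1 (SD, n = 4) in batch A and 456 ± 42.3 (SD, n = 7) in batch B, and without batch in the model it was not past the threshold (0.17, adjusted p = 0.108). Without T61340 and T60303 the adjusted p was 0.0558.

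Olfml3 encodes a secreted glycoprotein of the olfactomedin family. It was between 338 and 509 normalized counts in WT mice (median 424) and between 393 and 647 in TG mice (median 476), with 9 of 10 TG mice above the WT median and 3 above every WT mouse. Olfml3 rose from 418 ± 54.2 (SD) to 491 ± 66.7 (SD), a log2 fold change of 0.24 (SE 0.072, adjusted p = 0.00795). It was also past the threshold without T61340 and T60303 (0.19, adjusted p = 0.0401), but not in batch A (0.34, adjusted p = 0.116) or batch B (0.20, adjusted p = 0.0755) alone. The table holds a further row for this symbol, Olfml3-2, with a log2 fold change of 0.29 (SE 0.081, adjusted p = 0.00494). The ratio of this row to Olfml3 was 0.492 ± 0.030 (SD) in WT and 0.511 ± 0.022 (SD) in TG mice, and how reads were split between both rows is not given in the sources used here.

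Siglech, a sialic acid-binding lectin, had a median of 336 normalized counts in WT mice (283 to 419) and of 369 in TG mice (314 to 460). Its log2 fold change of 0.13 (SE 0.068, 95% interval -0.0036 to 0.26) was not past the threshold (adjusted p = 0.127). It passed without the TG mouse T61342, whose value of 314 was next to the lowest in TG mice (0.17, adjusted p = 0.0340), and with scaling by library size only (0.21, adjusted p = 0.0171). Fcrls, an Fc receptor-like scavenger receptor of mouse microglia, had a median of 531 in WT (446 to 623) and of 536 in TG mice (423 to 775). In TG mice, 2 were above and 2 were below every WT mouse, and the log2 fold change was 0.03 (SE 0.060, 95% interval -0.08 to 0.15, adjusted p = 0.670). In batch A the means were 603 ± 19.8 (SD, n = 4) in WT and 668 ± 96.3 (SD, n = 3) in TG mice (log2 fold change 0.17, adjusted p = 0.380 with edgeR), and in batch B 499.6 ± 38.7 (SD) and 492 ± 52.4 (SD). SALL1, a transcription factor needed for microglial identity, was the sole DNA-binding protein among the 10. Sall1 had a median of 536 in WT (485 to 659) and of 558 in TG mice (469 to 628), with a log2 fold change of 0.03 (SE 0.056, 95% interval -0.08 to 0.14, adjusted p = 0.683).

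**Figure D2:**
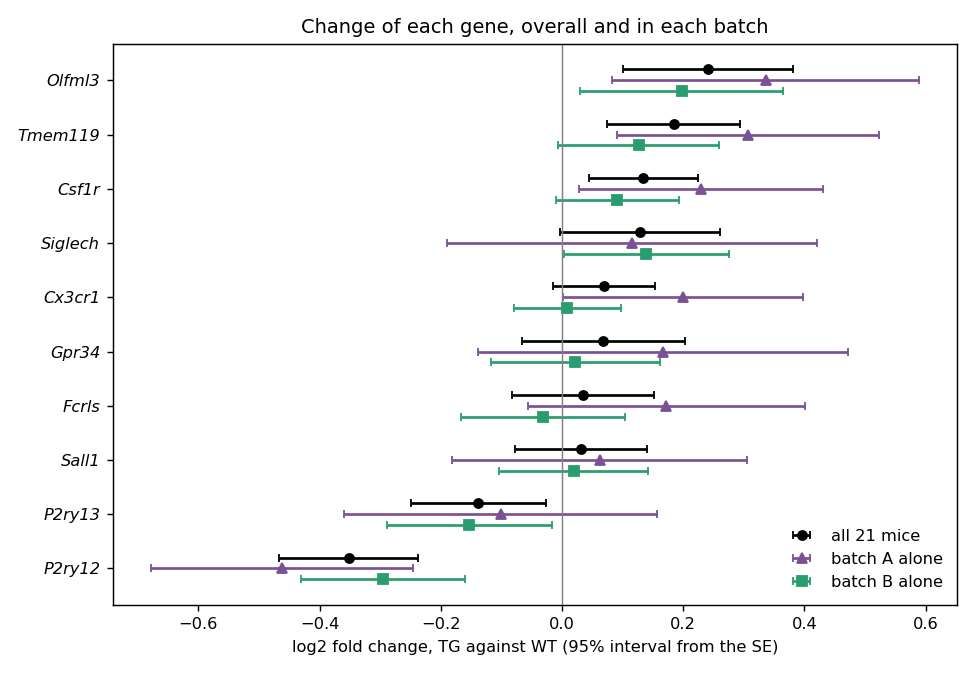
Log2 fold change of TG against WT (x axis) for each gene, from all 21 mice (black circles), batch A alone (triangles) and batch B alone (squares), with 95% intervals from the SE. P2ry12, at -0.35 in all mice, -0.46 in batch A and -0.30 in batch B, is the sole gene whose 3 values all lie below 0 with intervals that exclude 0.

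Batch A alone called 11.8% and batch B alone 39.1% of all genes. In each, 1 of the 10 genes was called, and in both it was P2ry12. Whether the genotype effect differed between the batches was tested by their interaction. For the 10 genes, the effect in batch A minus that in batch B was between -0.20 (P2ry12, SE 0.12, unadjusted p = 0.114) and 0.17 (Fcrls, SE 0.12, unadjusted p = 0.181). The edgeR interaction test called 0 of the 10 and 0 of 18248 genes, with 1030 at an unadjusted p under 0.05. What size of difference between batches could be detected was not tested, so equal effects are not shown. Without T61340 and T60303, P2ry12 and Olfml3 were called, where 41.7% of all genes were.

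The order of levels was compared per length, as CPM (counts scaled to the effective library size after TMM) per kilobase of annotated exons. Olfml3 was left out of the order, since its annotated exon length of 6161 bases exceeds the span of its gene in RefSeq. In WT mice, Csf1r was highest at 17.6 ± 1.13 CPM per kilobase (SD), followed by Cx3cr1 at 13.1 ± 0.583, P2ry12 at 12.9 ± 1.15, Fcrls at 10.8 ± 1.22 and Tmem119 at 9.87 ± 1.19. Gpr34 (5.49 ± 0.578), Sall1 (4.79 ± 0.432), Siglech (4.71 ± 0.558) and P2ry13 (4.70 ± 0.431) were lowest. Cx3cr1 and P2ry12, Fcrls and Tmem119, and Sall1, Siglech and P2ry13 differed by less than the SD between mice. In TG mice, P2ry12 at 10.1 ± 0.937 was below Tmem119 at 11.1 ± 1.77 and Fcrls at 10.9 ± 2.12, by less than the SD of these, while Csf1r (19.2 ± 1.61) and Cx3cr1 (13.7 ± 1.41) remained at the top.

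Within the same mouse, P2ry12 was compared with genes of the same cells. P2ry12 per Csf1r, as a ratio of normalized counts, was between 0.268 and 0.376 in WT mice (median 0.338) and between 0.184 and 0.302 in TG mice (median 0.220). T_70267 and T_69531 were the 2 TG mice within the WT range, and the other 8 were below every WT mouse. P2ry12 per Tmem119 was 1.45 ± 0.197 (SD) in WT and 1.03 ± 0.214 (SD) in TG mice, and P2ry12 per P2ry13 was 2.78 ± 0.330 (SD) and 2.39 ± 0.240 (SD). These ratios share P2ry12 as numerator and are not separate pieces of evidence. P2ry12 was called lower and Csf1r and Tmem119 higher in these same mice, so lower ratios to them follow from those calls.

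A list of 24 other genes of microglia and macrophages in general, such as Tyrobp and the complement genes C1qa, C1qb and C1qc, was measured in the same mice. Of these, 15 were higher in TG mice and 0 lower, where 23% of all genes were higher and 21.7% lower. The other 9 were not past the threshold, and the median log2 fold change of the 24 was 0.38. Largest were Ctss, which encodes the lysosomal protease cathepsin S (1265 ± 81.5 to 2296 ± 359 normalized counts, log2 fold change 0.86, SE 0.070, adjusted p = 5.56e-10), Ly86, a partner of the receptor RP105 (0.84, SE 0.081, adjusted p = 8.84e-09), and Cd68, a lysosomal glycoprotein (0.67, SE 0.093, adjusted p = 2.51e-06). Not all genes of the list were called, as Itgam (0.05, adjusted p = 0.514), Selplg (0.05, adjusted p = 0.512) and Inpp5d (0.0035, adjusted p = 0.974) were not past the threshold. Inpp5d was at 0.32 in batch A and -0.15 in batch B. In batch A alone 12 genes of the list were higher and 0 lower, where 11.8% of all genes were called. In batch B alone 14 were higher and 1 lower, where 39.1% of all genes were called. Without T61340 and T60303, 14 of 24 were higher. Per mouse, the mean log2 CPM of the 24 genes was 3.95 ± 0.115 (SD) in WT and 4.26 ± 0.243 (SD) in TG mice, and that of the 10 homeostatic genes was 4.68 ± 0.089 (SD) and 4.71 ± 0.115 (SD).

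The mean of the 10 genes minus the mean of the 24 was between 0.633 and 0.786 in WT mice (median 0.740) and between 0.144 and 0.661 in TG mice (median 0.466). All TG mice except T_70267 were below every WT mouse, and the means differed by -0.28 on the log2 scale, or by -0.23 without T61340 and T60303. Both lists were chosen with earlier results of these data known, so this difference is a description and carries no p-value. When the mean of the 24 genes was added to the model, 18.5% of all genes and 1 of the 10 were called. P2ry12 was the called gene (log2 fold change -0.39, SE 0.098, adjusted p = 0.00704), and the other values were between -0.18 (Fcrls) and 0.02 (Tmem119). In this model, the effect of genotype and the level of the 24 genes overlap, as 9 of 10 TG mice were above every WT mouse for that level.

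**Figure D3:**
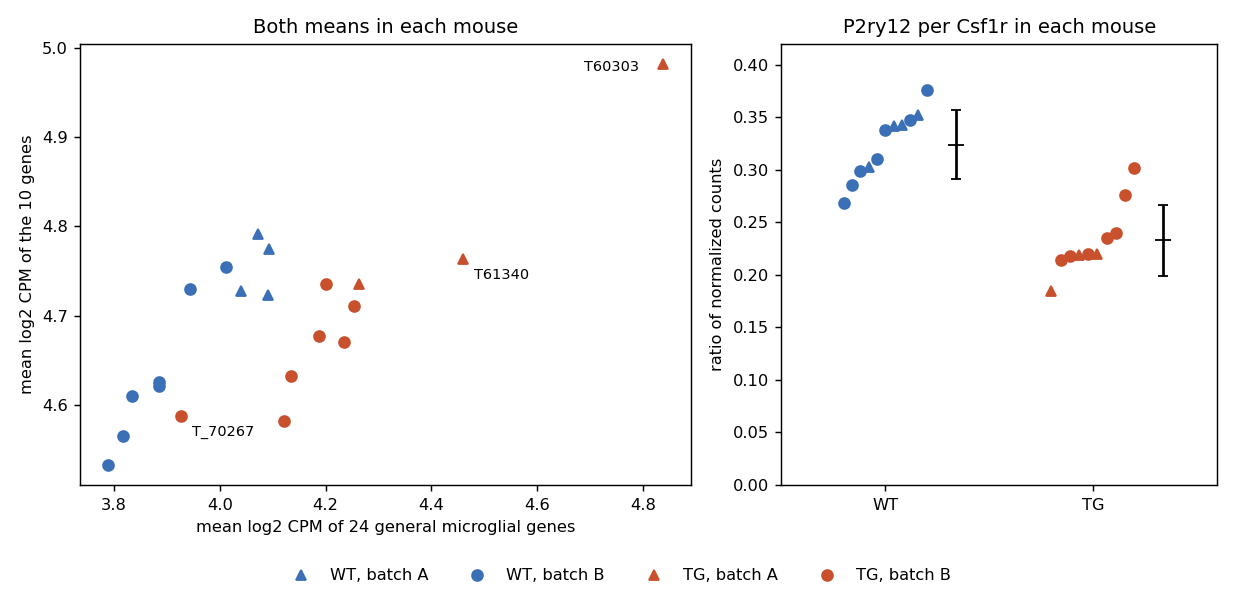
Left, mean log2 CPM of the 10 homeostatic genes (y axis) against that of the 24 general microglial genes (x axis) in each mouse, with T60303, T61340 and T_70267 named; right, ratio of P2ry12 to Csf1r normalized counts per mouse (y axis from 0), with mean ± SD. WT is blue and TG is red, with triangles for batch A and circles for batch B, and 9 of 10 TG mice lie to the right of every WT mouse in the left panel.

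Signals that reach microglia come largely from neurons and astrocytes, and partly from microglia themselves. In a list of 17 genes of such ligands, their receptors, activators and transducers, 3 were higher, 5 were lower and 9 were not past the threshold (median log2 fold change -0.06). This share of called genes was near the 44.7% of all genes. Scaling by library size only gave 6 higher and 2 lower. Over all genes that scaling moved the median by 0.08 and called 5832 higher of 8584, compared with 4190 of 8154, and among the 10 genes it called 5 higher and 1 lower. The ligands of CSF1R moved in opposite directions. Csf1 rose from 477 ± 56.1 (SD) to 620 ± 79.6 (SD) normalized counts (log2 fold change 0.39, SE 0.064, adjusted p = 2.70e-05), and all 10 TG mice were above the WT median of 477. Il34, which is made mainly by neurons, fell from 1062 ± 96.0 (SD) to 944 ± 124 (SD) (log2 fold change -0.17, SE 0.065, adjusted p = 0.0399), but not with library size only (adjusted p = 0.247). It was past the threshold in 11 of 21 fits that left out 1 mouse (adjusted p between 0.00547 and 0.0845), and its effect was 0.0060 in batch A and -0.25 in batch B.

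Cx3cl1, the ligand of CX3CR1, was between 12374 and 17103 normalized counts in WT mice and between 8500 and 12281 in TG mice, with no overlap. Its log2 fold change was -0.48 (SE 0.056, adjusted p = 1.80e-07), whereas the receptor was not past the threshold. In the TGF-β pathway, Tgfb1, the microglial ligand, rose (0.34, SE 0.096, adjusted p = 0.00549). Without T61340 and T60303 it was narrowly past the threshold (0.25, adjusted p = 0.0485). It was not past it in batch A (adjusted p = 0.0845) or batch B (adjusted p = 0.0633) alone. Tgfb2 fell (-0.37, SE 0.13, adjusted p = 0.0206), though not without T61340 and T60303 (adjusted p = 0.120). Itgav, the integrin chain that activates TGF-β together with the product of Itgb8, fell, with all 10 TG mice below every WT mouse (-0.60, SE 0.083, adjusted p = 2.39e-06). Itgb8 itself was not past the threshold (-0.41, SE 0.17, adjusted p = 0.0561), but was without T61340 and T60303 (-0.26, adjusted p = 0.0368). Also not past it were the receptors Tgfbr1 (0.13, adjusted p = 0.168, and 0.000377 without T61340) and Tgfbr2 (0.10, adjusted p = 0.167), Nrros, which anchors latent TGF-β on microglia (0.13, adjusted p = 0.217), and the transducers Smad2, Smad3 and Smad4 (between -0.12 and -0.05). Among genes that restrain microglia, Cd200 rose (0.13, SE 0.048, adjusted p = 0.0262) and Cd47 fell (-0.21, SE 0.081, adjusted p = 0.0380), the latter not without T61340 and T60303 (adjusted p = 0.0948). With 1 mouse left out, Cd200 was past the threshold in 19 and Cd47 in 11 of 21 fits. Their receptor genes Cd200r1 (0.10, SE 0.33, adjusted p = 0.839) and Sirpa (-0.09, SE 0.038, adjusted p = 0.0588) were not past the threshold, and Sirpa was without T61340 and T60303 (adjusted p = 0.0471). Cd200r1 was low, with means of 10.8 normalized counts in WT and 11.7 in TG mice. With the mean of the 24 general microglial genes in the model, Cx3cl1, Itgav and Cd200 were past the threshold. Csf1, Il34, Tgfb1, Tgfb2 and Cd47 were then not past it. Markers of the cells that make these signals also moved. Of 6 neuronal markers, 4 were lower and 0 higher, with Snap25 at -0.75 (SE 0.048, adjusted p = 1.13e-11), and of 6 astrocyte markers, 5 were lower and 1, Gfap, was higher (1.03, SE 0.11, adjusted p = 4.97e-08). With library size only, 3 neuronal and 2 astrocyte markers were lower, and in batch A alone 1 and 0. Their part in the levels of these signals was not tested.

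Of 12 transcription factors of microglia other than Sall1, 5 were higher, 1 was lower and 6 were not past the threshold (median 0.08). This share of called genes was near the 44.7% of all genes. The largest rise was that of Irf8, a factor of microglial development and activation, from 112 ± 9.18 (SD) to 181 ± 57.3 (SD) normalized counts (log2 fold change 0.70, SE 0.11, adjusted p = 1.66e-05), followed by Runx1 (0.48, adjusted p = 0.00905), Ikzf1 (0.40, adjusted p = 0.00126), Spi1, which encodes PU.1 (0.37, adjusted p = 0.00452), and Cebpa (0.25, adjusted p = 0.0168). Mef2c fell from 11405 ± 1544 (SD) to 8613 ± 1276 (SD) normalized counts (-0.41, SE 0.078, adjusted p = 0.000120) and is also expressed in neurons. Without T61340 and T60303, 4 factors were higher and 1 lower, as Cebpa was not past the threshold (adjusted p = 0.0650). Of 9 tested purinergic and related receptors other than the 10 genes, 5 were higher and 0 lower (median 0.50). These were C3ar1, a complement receptor (0.77, SE 0.14, adjusted p = 8.18e-05), Gpr84 (1.44, adjusted p = 1.75e-07), C5ar1 (0.61, adjusted p = 0.00603), the UDP receptor gene P2ry6 (0.54, adjusted p = 0.00160) and Gpr183 (0.50, adjusted p = 0.00887), each with a mean of at most 87.5 normalized counts in either genotype. The nucleotide receptor genes P2rx4 (-0.06, adjusted p = 0.485), P2rx7 (0.0011, adjusted p = 0.993) and P2ry14 (-0.03, adjusted p = 0.839), and Entpd1, an ectonucleotidase (-0.09, adjusted p = 0.220), were not past the threshold.

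Of 16 genes of disease-associated microglia, 9 were higher and 0 lower (median 0.55), where 23% of all genes were higher and 21.7% lower. Without T61340 and T60303, 8 were higher with a median of 0.36. In batch A alone 7 were higher and 0 lower, and in batch B alone 8 were higher and 1 lower. Those with the largest changes among genes above a mean of 50 normalized counts were Ccl6 (1.43, SE 0.15, adjusted p = 5.98e-08), Gpnmb (1.14, SE 0.32, adjusted p = 0.00602) and Ctsd (0.71, SE 0.063, adjusted p = 3.03e-09). Gpnmb was at 809.9 normalized counts in T60303 and between 75.3 and 136 in the other TG mice, and without T60303 its log2 fold change was 0.54 (adjusted p = 0.00103). Of 8 genes of border-associated macrophages, 0 were higher and 1, Stab1, was lower (-0.21, SE 0.081, adjusted p = 0.0343, past the threshold in 14 of 21 fits with 1 mouse left out). With library size only, 1 was higher, Lyve1 (0.52, adjusted p = 0.0385), and 0 were lower, with Stab1 at -0.14 (adjusted p = 0.204). The sum of these 8 genes was between 519 and 834 normalized counts in WT and between 524 and 880 in TG mice. All 6 genes of an interferon response were higher (median 3.09), among them Irf7 (3.21, SE 0.20, adjusted p = 6.27e-12). Of 4 tested genes of dividing cells, 2 were higher, Mki67 (0.93, adjusted p = 0.000567) and Top2a (0.75, adjusted p = 0.000636), each below 50 normalized counts on average. Of 6 oligodendrocyte markers, 0 were called with edgeR or DESeq2 (0 at an unadjusted p under 0.05 with edgeR), and 0 in either batch alone, and of 6 endothelial markers, 1, Flt1, was lower (-0.17, SE 0.050, adjusted p = 0.00620), but not with library size only (-0.10, adjusted p = 0.0938) or in batch A (adjusted p = 0.128) or batch B (adjusted p = 0.0689) alone.

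**Figure D4:**
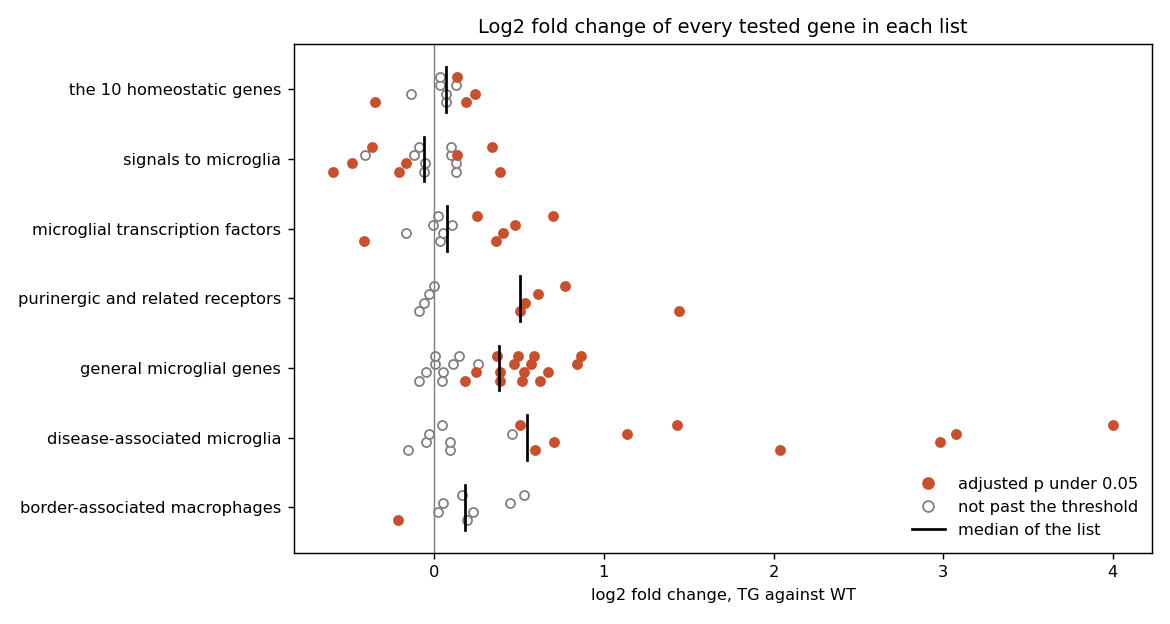
Log2 fold change of TG against WT (x axis) for each tested gene of 7 lists (rows), filled where the adjusted p is under 0.05, with the median of each list as a black bar. The 10 homeostatic genes lie between -0.35 and 0.24, while genes of disease-associated microglia reach beyond 3.07, the value of Itgax.

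How the 10 genes varied together was described across the 21 mice by Pearson's r of log2 CPM after removal of genotype and batch. These mice share tissue, sequencing and the normalization, and r is given as a description. Over the 45 pairs, r was between -0.26 and 0.78, with a median of 0.23 (0.19 without T61340 and T60303). The closest pairs were Tmem119 and Csf1r (0.78), Csf1r and Olfml3 (0.75) and Fcrls and Olfml3 (0.62), so the 3 genes that rose also varied together within genotypes. P2ry12 and P2ry13 had the lowest median r with the other genes (0.07 and 0.06), and r between both was 0.17. Without T61340 and T60303 these medians were -0.02 for P2ry12 and 0.21 for P2ry13, and P2ry13 was then above Sall1 (0.09) and Tmem119 (0.10). P2ry12 was closest to Siglech (0.48). Among 14570 genes with a mean of at least 50 normalized counts outside the 10, those with the highest mean r with them were Srebf1 (0.49), a regulator of lipid synthesis, Itgam (0.48), which encodes CD11b, C1qc (0.46), Tnfrsf1b (0.45), Pld4 (0.45), C1qa (0.45), C3ar1 (0.44) and Slco2b1 (0.43). Srebf1 and Itgam were also the top 2 without T61340 and T60303 (0.43 and 0.42), while Tnfrsf1b then ranked 25, C1qa 16 and C3ar1 66.

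**Figure D5:**
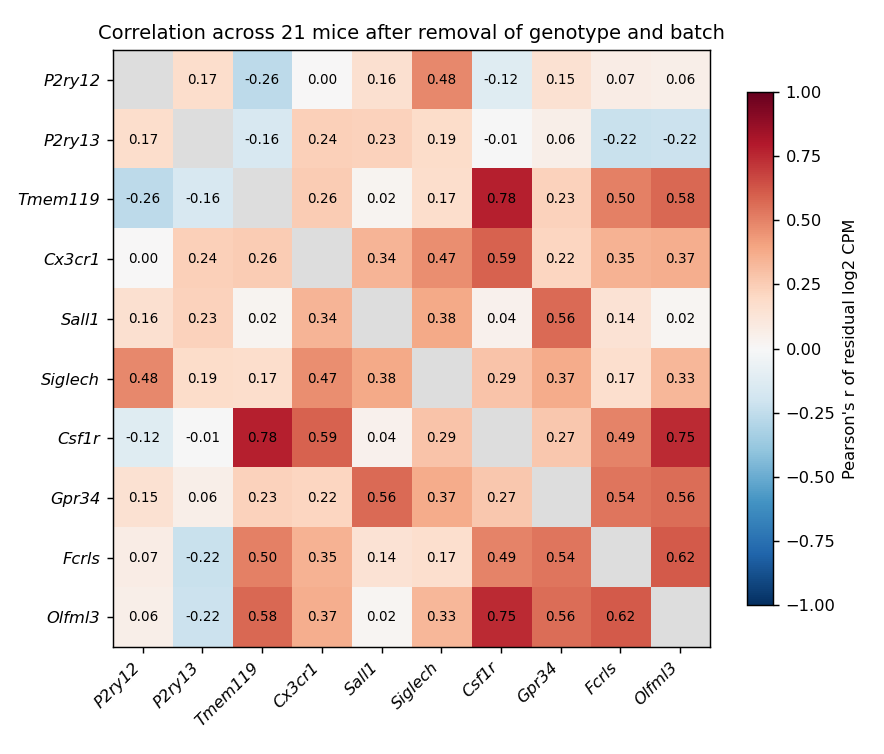
Pearson's r between each pair of the 10 genes across 21 mice, from log2 CPM after removal of genotype and batch, with red for positive and blue for negative values. Csf1r, Tmem119, Fcrls and Olfml3 form pairs of 0.49 to 0.78, and the pairs with P2ry12 or P2ry13 lie between -0.26 and 0.48.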

How the data were processed

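Bulk RNAseq covered the neocortex of 11 WT and 10 TG mice, grouped by the genotype and batch in the labels. The authors aligned paired-end reads of mRNA libraries to GRCm38. Their deposited table holds raw counts for each gene symbol; the submitters' notes also name HISAT2, Bowtie2 and RSEM, with no role given. Rows of further symbol copies (2553, with 4.11% of counts) were kept.

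The analysis used edgeR 4.0.16 in R 4.3.3, with its expression filter (minimum count 10, minimum total 15), TMM and the two-sided quasi-likelihood test, which was checked on simulated data. There, at an adjusted p under 0.05, it called 192 of 200 genes changed by a log2 fold of size 1, and 20 unchanged genes. Standard errors come from the log2 fold change and F statistic. Normalized counts are counts over effective library size times its mean, and log2 CPM used a prior count of 2. Exons are from GENCODE for GRCm38.

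The 10 genes and all lists were chosen with earlier results of these data known. Named were the 10 genes, the signal genes, per list the 3 genes with the largest change past the threshold and a mean of at least 50 normalized counts, the 8 most correlated genes and overlapping genes. Others were named after their values were seen. Alternatives were DESeq2 1.42.0, no batch term, library size only, upper-quartile scaling, other count filters, each batch alone, no copy rows, the level of general microglial genes as covariate and leaving out mice, and, added after the data were seen, both Olfml3 rows summed and the general list without C1qa, C1qb, C1qc and Ctss.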

Additional observations from a re-analysis of the deposited data

Results flagged for a closer look

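In 62 sets of values of the 10 TG mice, the gap of the highest or lowest mouse to the next, divided by the range, exceeded the 95% critical value of Dixon's test in 14. Chance gives about 1 in 20, or 3.1 for independent sets from 1 group. These sets are not independent, since 4 of the 14 genes (Srebf1, Itgam, Tnfrsf1b and C3ar1) are among those named for their correlation with the 10 across the same mice, and the TG mice are from batches A (3 mice) and B (7 mice). In 10 of the 14 the mouse was T60303 of batch A, at the high end, and in 4 it was T61340 of batch A, at the low end.

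Of the 10 homeostatic genes, 2 were among them. Siglech was at 460 normalized counts in T60303 and between 314 and 387 in the other TG mice (gap 0.498 of the range). Gpr34 was at 358 in T60303 and between 227 and 273 in the others (0.648). The same mouse stood apart for Csf1 (0.495), Irf8 (0.485), C3ar1 (0.652), Gpnmb (0.918), Gfap (0.468), Srebf1 (0.500), Itgam (0.614) and Tnfrsf1b (0.641). Gpnmb had the largest gap, and its log2 fold change was 2.41 in batch A and 0.41 in batch B. T61340 was lowest for Tgfbr1 (0.474), Itgav (0.473), Itgb8 (0.502) and Med12l (0.474), with 117 normalized counts of Itgb8 compared with 373 to 627 in the other TG mice. P2ry12 was not among them.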

How the results depend on the processing

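Of the 10 genes, 4 were called in the analysis of 21 mice, 1 in batch A alone, 1 in batch B alone, 2 without T61340 and T60303, and 1 with the general microglial genes as covariate; between 4 and 6 were called when 1 mouse was left out, where between 42.6% and 45.6% of all genes were called. P2ry12 was called and lower under each of these. The batches alone hold fewer mice; for the other changes the cause was not tested. With the covariate, the log2 fold change turned negative for Cx3cr1 (-0.084), Sall1 (-0.063), Siglech (-0.099), Csf1r (-0.050), Gpr34 (-0.17), Fcrls (-0.18) and Olfml3 (-0.071), none past the threshold. Fcrls was also negative in batch B alone (-0.031), without T61340 and T60303 (-0.00071) and without T60303 (-0.0083), as was Sall1 without T60303 (-0.0021); over all 21 fits that left out 1 mouse, Fcrls was between -0.0083 and 0.061 and Sall1 between -0.0021 and 0.065. With library size only, Cx3cr1 (0.15, adjusted p = 0.00837) and Siglech (0.21, adjusted p = 0.0171) also passed the threshold, where 47% of all genes were called. With TMM, P2ry13 passed in 7 of 21 fits that left out 1 mouse (TG T_70267, T_69531 or T61342, or WT T_70264, T_70262, T_70256 or T61345), with adjusted p between 0.0226 and 0.105 over all 21. Summing both Olfml3 rows changed no call among the 10. Counting error and the spread between mice were not separated.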
